A study of Mus musculus with 4 samples.

Results

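The clustered protocadherins are cadherin-like cell surface proteins encoded by 3 neighbouring gene clusters, alpha, beta and gamma. They were picked by symbol from the gene count table, which held 57 of them among its 55418 rows: 13 alpha genes (Pcdha1 to Pcdha9, Pcdha11, Pcdha12, Pcdhac1 and Pcdhac2), 22 beta genes (Pcdhb1 to Pcdhb22) and 22 gamma genes (12 of the A type, 7 of the B type, and Pcdhgc3, Pcdhgc4 and Pcdhgc5). The libraries were mRNA-seq of E14 mouse embryonic stem cells (ESCs) of the strain given as 12910la, grown on gelatin in serum medium with LIF, the cytokine that keeps ESCs self-renewing. There were 2 libraries of wild-type (WT) ESCs and 2 of Pim3-/- ESCs, in which CRISPR/Cas9 had been used to disrupt Pim3, a serine/threonine kinase gene. Each Pim3-/- library came from its own clone, so that genotype and the history of a clone cannot be told apart, and with 2 libraries per group every p-value rests on the spread between these 4 libraries. The comparison asks how these genes differed in RNA level between Pim3-/- and WT ESCs.

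In the alpha and gamma clusters, each gene has a large exon of its own, which encodes the whole extracellular part, the membrane span and the start of the cytoplasmic tail, and all genes of a cluster are spliced to the same constant exons, which encode the rest of the tail. Beta genes have no constant exons. In neurons, each cell chooses a few promoters, with the insulator protein CTCF and cohesin looping enhancers to them, and the proteins bind their own kind on other cells, which lets a neuron tell its own branches from those of others. The C-type genes at the end of the alpha and gamma clusters are known for broader use across neurons than the others, and the alternate promoters are known to be methylated early in development by the DNA methyltransferase Dnmt3b.

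All 57 genes lie on the plus strand of chromosome 18 in GRCm38 (GENCODE M21 annotation). The alpha genes span 36930184 to 37187661, the beta genes 37264938 to 37524479 and the gamma genes 37661793 to 37841873. The 3 alpha constant exons hold 59, 89 and 2712 bases, and the 3 gamma constant exons hold 59, 89 and 1968 bases. The last and longest gamma constant exon lies at 37839903 to 37841870 and contains the 3′ untranslated region common to the cluster. No sequence is printed for these genes.

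**Figure D1:**
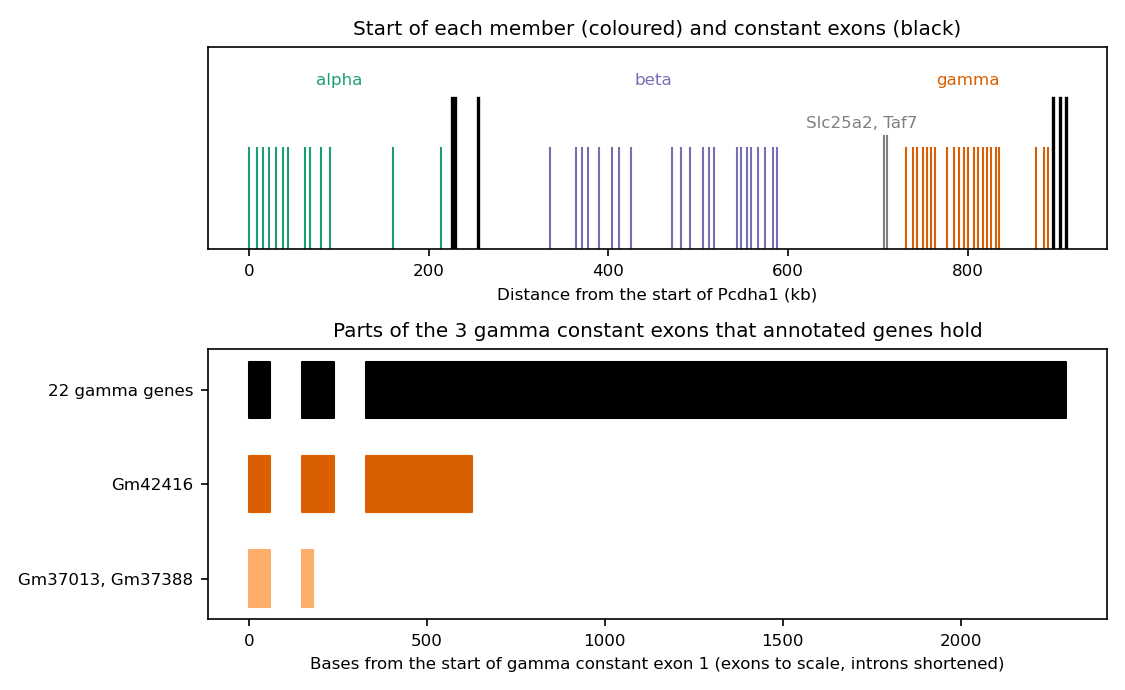
The upper map gives the start of each of the 57 members (coloured lines: alpha, beta, gamma), the constant exons (black) and Slc25a2 and Taf7 (grey) by distance from the start of Pcdha1 in kb; the lower map draws to scale the bases of the 3 gamma constant exons held by all 22 gamma genes, by Gm42416 and by Gm37013 and Gm37388. The constant exons sit at the 3′ end of the alpha and gamma clusters, and the 3 predicted genes hold only their first bases.

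Reads on the constant exons were counted for every gene of the cluster, and this fixes what a row can show. The 22 gamma rows lay between 800 and 827 counts in WT replicate 1, between 953 and 993 in WT replicate 2, between 1972 and 2109 in Pim3-/- replicate 1 and between 1411 and 1547 in Pim3-/- replicate 2. The span from the lowest to the highest gamma row was thus 3.38, 4.20, 6.95 and 9.64% of the lowest row. Pcdhga6 was the lowest in all 4 libraries, level with Pcdhgc4 in Pim3-/- replicate 2, and Pcdhgc3 was the highest in all 4. The 13 alpha rows held 2 counts each in WT replicate 1, and Pcdha1, Pcdha2, Pcdha7, Pcdha8, Pcdha11 and Pcdhac1 had the same 4 counts: 2, 5, 18 and 16. The 13 alpha rows and the 22 gamma rows are therefore near copies of 1 measurement per cluster and not 35 independent ones.

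In what follows, the lowest row of a cluster in each library is called the constant-exon reads, and the excess of a row over it the own-exon reads. An own-exon count can be too low, because any reads on the own exon of the lowest gene (Pcdhga6 for gamma) are left in the constant-exon value and subtracted from every row. It can also be too high, because Pcdhgb1 and Pcdhga4 share 1038 bases outside the constant exons and Pcdhgb4 and Pcdhga8 share 108, on which a read counts for both genes, and because antisense transcripts overlap some own exons. Levels are counts per 1000000 (CPM) of the TMM-scaled library size, given as mean ± SD.

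**Figure D2:**
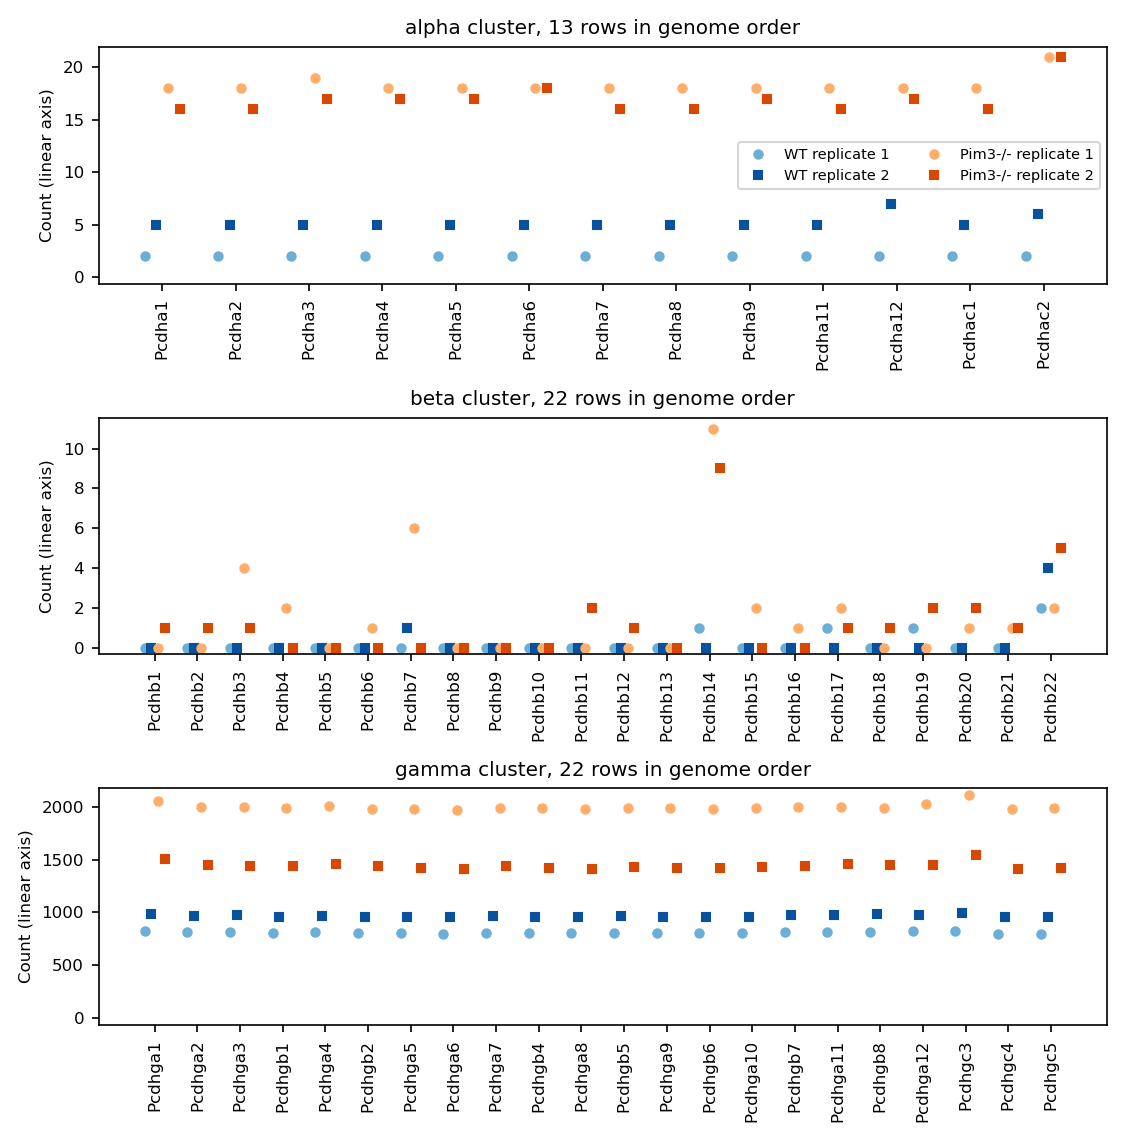
Counts of each alpha, beta and gamma row (x axis, genome order) in the 4 libraries (points) on linear count axes that differ between panels. The alpha and gamma rows run flat within a library, with both Pim3-/- libraries above both WT libraries, whereas beta rows differ from gene to gene and stay at or below 11 counts.

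As deposited, 34 of the 57 rows were higher in Pim3-/- than in WT ESCs and none was lower, by edgeR's quasi-likelihood test at a Benjamini-Hochberg adjusted p under 0.05 over all genes. The 34 were all 22 gamma rows and 12 of the 13 alpha rows. Over all 18444 genes tested, 17.6% were higher and 16.2% lower. Beta genes could not be tested, since none of the 22 passed the filter on low counts. The 12 alpha rows were at least 3-fold higher, against 8.47% of all genes tested. The 13 alpha rows passed the filter only through their Pim3-/- libraries, so a difference was to be found among them once they passed. At an unadjusted p under 0.05, 35 rows were higher and 0 lower, against 24.7% of all genes higher, and DESeq2's Wald test called 3 rows higher and 0 lower, against 13.9% of all genes higher. Without WT replicate 1, or without WT replicate 2, edgeR called 0 of the rows higher, where 2.03% and 2.95% of all genes were. It called 28 rows without Pim3-/- replicate 1 and 34 without Pim3-/- replicate 2, where 28.3% and 25.5% of all genes were higher. Most calls over the table were thus lost when a WT library was left out, not those of protocadherins alone. Counting each constant-exon read once, 4 features of the clusters were higher: the gamma constant exons, the alpha constant exons, and the own exons of Pcdhgc3 and Pcdhga1. With the reads so counted, 17.4% of 18423 tested features were higher.

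The gamma constant exons carried most of the clustered protocadherin reads in these ESCs. They held 800 counts in WT replicate 1, 953 in WT replicate 2, 1972 in Pim3-/- replicate 1 and 1411 in Pim3-/- replicate 2. Both Pim3-/- libraries were above both WT libraries, an order that 38.2% of all tested features showed. The level was 41.9 ± 0.221 CPM in WT and 64.3 ± 13.5 CPM in Pim3-/- ESCs (SD, n = 2 each). The log2 fold change was 0.62 (SE 0.19) with an adjusted p of 0.0408 by edgeR's quasi-likelihood test. The WT libraries differed by -0.011 on the log2 scale and the Pim3-/- libraries by 0.433, against a median absolute difference of 0.163 and 0.346 over genes that reached 10 counts in each of the libraries compared. The call rested on a small margin: with DESeq2's size factors the log2 fold change was 0.58 (adjusted p = 0.0519), and without WT replicate 1 or WT replicate 2 it was 0.56 and 0.54 (adjusted p = 0.329 and 0.311), over a range of 1.82e-07 to 0.329 for the adjusted p across alternatives. For comparison, 11.9% of the 3935 tested genes with a mean of 30 to 100 CPM were higher, with a median log2 fold change of -0.20, while the median over all tested genes was 0.07.

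Scaling matters for all of these values, as the TMM factors were 0.828 and 0.883 for WT and 1.168 and 1.172 for Pim3-/- libraries. With library totals in their place the median log2 fold change of all tested genes moved from 0.07 to 0.52, the calls over all genes from 3246 higher and 2987 lower to 6606 higher and 1092 lower, and the median of the gamma rows from 0.62 to 1.07. Such a change of scaling moves every gene by nearly the same amount.

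Within the constant exons, the difference could be followed by position, because Gm37013 and Gm42416, predicted protein-coding genes that the annotation joins from an alpha own exon to part of the gamma constant exons, were counted on nested stretches of them. Gm37013 and Gm37388 hold constant exon 1 and the first 32 bases of constant exon 2 and had equal counts in every library. Gm42416 goes on through constant exon 2 and the first 298 bases of constant exon 3. The first stretch held 60 counts in WT replicate 1, 97 in WT replicate 2, 245 in Pim3-/- replicate 1 and 162 in Pim3-/- replicate 2. Its log2 fold change was 1.06 (SE 0.32, adjusted p = 0.0377 by edgeR's quasi-likelihood test). The middle stretch held 83, 121, 258 and 200 counts in the same order, with a log2 fold change of 0.85 (SE 0.27, adjusted p = 0.0458). The remaining 3′ stretch held 657, 735, 1469 and 1049 counts and had a log2 fold change of 0.52 (SE 0.19), which did not pass at an adjusted p of 0.0712. The middle stretch lost its call with DESeq2's size factors, no filter, the replicate block and DESeq2's Wald test (0.81, adjusted p = 0.0641). By edgeR's test the 3′ stretch passed with library totals (0.97, adjusted p = 0.00743) and with at least 10 counts in every library (0.60, adjusted p = 0.04975). With 1 library left out, the first, middle and 3′ stretches ran from 0.74 to 1.28, 0.65 to 0.98 and 0.27 to 0.71. All 3 stretches, which are parts of the same exons, were higher in each Pim3-/- library than in either WT library, as were 38.2% of all tested features. Whether the fold changes differed between the stretches was not tested, and their standard errors overlap or nearly meet.

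The 3′ stretch took 82.1% of the constant-exon reads in WT replicate 1 (exact binomial 95% interval 79.3 to 84.7), 77.1% in WT replicate 2 (74.3 to 79.8), 74.5% in Pim3-/- replicate 1 (72.5 to 76.4) and 74.3% in Pim3-/- replicate 2 (72.0 to 76.6). The share was lower in both Pim3-/- libraries than in WT replicate 1, while the interval of WT replicate 2 overlapped those of the Pim3-/- libraries. These intervals cover counting error only. The first stretch took 7.5%, 10.2%, 12.4% and 11.5% in the same order.

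Own-exon reads give the level on each gamma own exon above the lowest row. They do not by themselves show which gamma genes were in use, since their strand is unknown and antisense genes overlap some of these exons. Summed over the 22 genes they came to 191, 304, 549 and 666 counts in WT replicates 1 and 2 and Pim3-/- replicates 1 and 2, which is 23.9, 31.9, 27.8 and 47.2 own-exon reads per 100 constant-exon reads. Reads on the bases shared by Pcdhgb1 and Pcdhga4 or by Pcdhgb4 and Pcdhga8 are in these sums 2 times. Per kb of exon outside the constant exons, averaged over the 4 libraries, Pcdhgc3 stood highest at 1.004 CPM per kb, followed by Pcdhga1 at 0.744. Pcdhgb8 (0.439), Pcdhga11 (0.437) and Pcdhga4 (0.425) came next and lay closer together than their libraries did. At the other end, above Pcdhga6, were Pcdhgc5 (0.0451), Pcdhga8 (0.0407) and Pcdhgc4 (0.0123). In WT ESCs alone the highest 3 lay close together, with 0.469 ± 0.0745 CPM per kb for Pcdhgc3, 0.437 ± 0.0732 for Pcdhga1 and 0.426 ± 0.248 for Pcdhgb8 (SD, n = 2), less apart than the libraries were, and Pcdhga4 was at 0.264 ± 0.0336. In Pim3-/- ESCs Pcdhgc3 was at 1.54 ± 0.0298, above Pcdhga1 at 1.05 ± 0.134, and these were followed by Pcdhga4 at 0.587 ± 0.221 and Pcdhga11 at 0.545 ± 0.269.

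**Figure D3:**
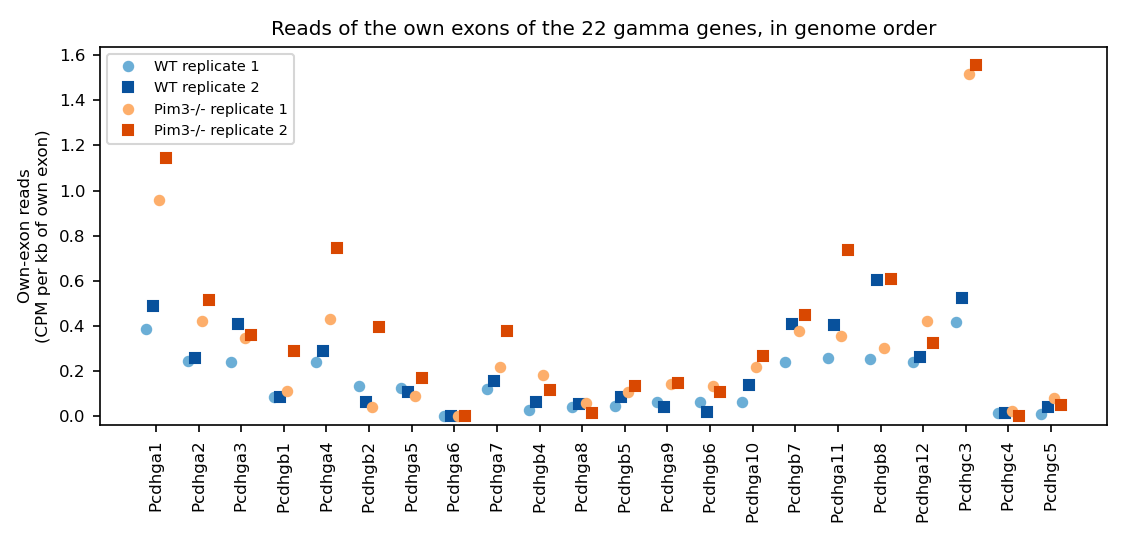
Own-exon reads of the 22 gamma genes in CPM per kb of exon outside the constant exons (y axis, linear) in each library (points), genes in genome order. Pcdhgc3 and Pcdhga1 stand above the rest in the Pim3-/- libraries, Pcdhga6 is at 0 because it defines the constant-exon reads, and Pcdhga8, Pcdhgc4 and Pcdhgc5 stay near 0.

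Pcdhgc3, the C-type gene that other tissues besides brain also use, had own-exon counts of 27 and 40 in WT replicates 1 and 2 and of 137 and 136 in Pim3-/- replicates 1 and 2. The groups were well apart and the 2 Pim3-/- clones were alike. The level rose from 1.59 ± 0.252 to 5.20 ± 0.101 CPM (SD, n = 2). The log2 fold change was 1.71 (SE 0.32) with an adjusted p of 0.00923 by edgeR's quasi-likelihood test. Leaving out 1 library at a time gave log2 fold changes of 1.51 to 1.80, of which those without WT replicate 1 (adjusted p = 0.124) and WT replicate 2 (adjusted p = 0.065) did not pass. Its share of the gamma own-exon reads was 14.1% and 13.2% in WT and 24.9% and 20.4% in Pim3-/- libraries, with exact binomial 95% intervals of 9.53 to 19.9, 9.57 to 17.5, 21.4 to 28.8 and 17.4 to 23.7. The share was higher in both Pim3-/- libraries, but the interval of Pim3-/- replicate 2 overlapped that of WT replicate 1 and just met that of WT replicate 2.

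BC037039, an antisense gene, overlaps the Pcdhgc3 own exon by 1559 bases, and neither the kit nor the counting is stated to keep strand, so reads of the pair cannot be told apart. BC037039 held 20, 24, 95 and 91 counts and its log2 fold change was 1.75 (SE 0.36, adjusted p = 0.0114 by edgeR's quasi-likelihood test). Without WT replicate 1 or WT replicate 2 the log2 fold change was 1.68 in both cases, with an adjusted p of 0.123 and 0.107.

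Pcdhga1, the first gene of the gamma cluster, had own-exon counts of 24 and 36 in WT and of 83 and 96 in Pim3-/- ESCs. It rose from 1.42 ± 0.238 to 3.42 ± 0.434 CPM, with a log2 fold change of 1.26 (SE 0.36) and an adjusted p of 0.0317 by edgeR's quasi-likelihood test. The call was lost without WT replicate 1 (1.05, adjusted p = 0.294) or WT replicate 2 (1.36, adjusted p = 0.169) and by DESeq2's Wald test (1.22, adjusted p = 0.0538). An antisense gene, Gm37118, overlaps 406 bases of its exon and held 7, 12, 34 and 31 counts, with a log2 fold change of 1.45 (SE 0.48) that just missed the threshold at an adjusted p of 0.0503. The annotated gene 3222401L13Rik, which ends 51 bases before Pcdhga1 begins, held 25, 36, 56 and 72 counts (log2 fold change 0.75, adjusted p = 0.159).

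Of the 22 gamma own exons, 15 passed the filter on low counts, and these 15 had log2 fold changes between 0.07 and 1.71, with a median of 1.09. The filter shaped these values: Pcdhgb1, Pcdhga7, Pcdhgb4, Pcdhgb5, Pcdhga9 and Pcdhga10 passed it only through their Pim3-/- libraries and so had to be higher there, while the other 9 reached it in both WT libraries and had a median of 0.71, between 0.07 and 1.71. Of the 15, 2 were called, where 17.4% of all tested features were higher. An unadjusted p under 0.05 was reached by 5, where 24.7% of all genes as deposited were higher. These 5 include Pcdhgb4 and Pcdhga9, which passed the filter only through their Pim3-/- libraries. Both Pim3-/- libraries were above both WT libraries in 13 of the 22 own exons, while 38.2% of all tested features showed that order. The 22 include own exons that were not tested, so the 13 and the 38.2% are not like for like. The 6 that passed the filter only through their Pim3-/- libraries are among the 13. Among those that did not pass the test, Pcdhga4 had 12, 17, 30 and 50 counts (log2 fold change 1.14, adjusted p = 0.102), Pcdhgb4 had 2, 5, 18 and 11 (1.70, adjusted p = 0.0817) and Pcdhga9 had 4, 3, 13 and 13 (1.53, adjusted p = 0.0901). The WT and Pim3-/- levels of these 3 did not overlap, which for Pcdhgb4 and Pcdhga9 follows from how they passed the filter.

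Other gamma genes showed no such separation. Pcdhga3 had 12 counts in WT replicate 1 and 24 in each of the other 3 libraries (log2 fold change 0.11, SE 0.47). Pcdhgb8 had 12, 34, 20 and 39 counts (0.07, SE 0.58), so that its WT replicates differed more than the groups did. Pcdhgb2 had 7, 4, 3 and 28 counts, high in Pim3-/- replicate 2 alone, and was not tested. With standard errors of this size, a difference as large as that of Pcdhga2 (0.89, SE 0.45) did not pass either, so smaller ones in these genes were not detectable at this depth.

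The remaining C-type gamma genes were hardly read. Pcdhgc4, which is known to need other protocadherins to reach the cell surface, had 1, 1, 2 and 0 own-exon counts. Pcdhgc5 had 1, 5, 12 and 7. The deposited rows of these genes read 0.62 on the log2 scale for both, which is the value of the constant exons.

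Gm26672, a transcript on the minus strand that covers the own exon of Pcdhga10 and parts of those of Pcdhgb7, Pcdhga11 and Pcdhga12, held 16, 34, 79 and 77 counts (log2 fold change 1.33, SE 0.41, adjusted p = 0.0408 by edgeR's quasi-likelihood test). The plus-strand genes below it held 3, 8, 15 and 18 own-exon counts for Pcdhga10, 12, 24, 26 and 30 for Pcdhgb7, 13, 24, 25 and 50 for Pcdhga11 and 21, 27, 51 and 38 for Pcdhga12. None of these 4 passed the test, and for them too the strand of the reads is unknown. The call of Gm26672 was lost by DESeq2's Wald test (log2 fold change 1.30, adjusted p = 0.0617). Without WT replicate 1 or WT replicate 2 the log2 fold change of Gm26672 was 0.93 and 1.74.

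**Figure D4:**
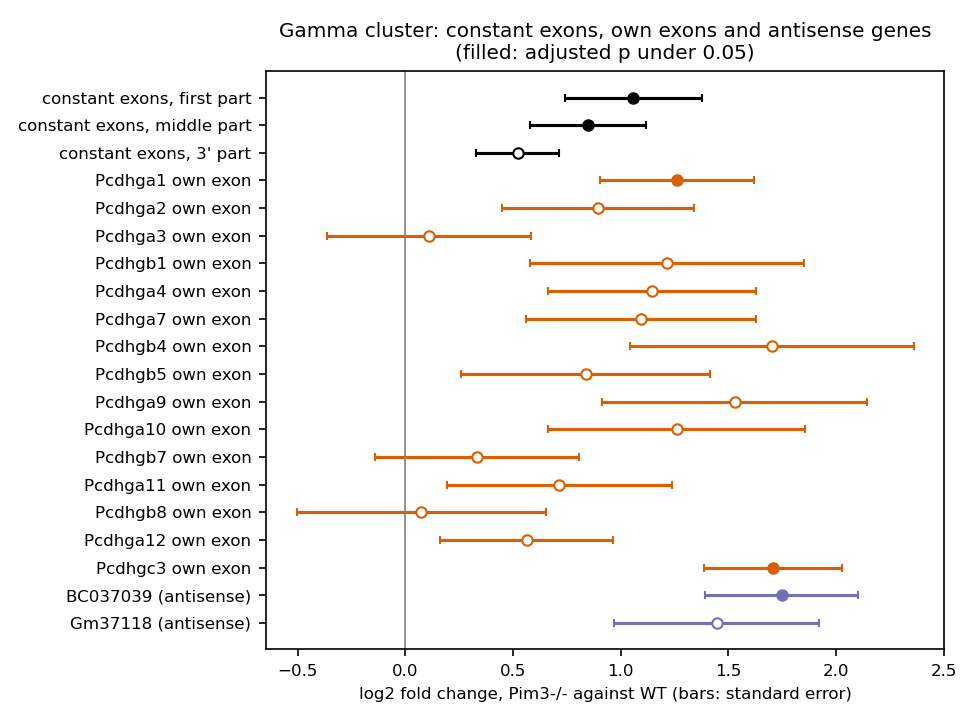
Log2 fold change of Pim3-/- against WT (x axis; bars, standard error) for the 3 stretches of the gamma constant exons (black), the 15 tested gamma own exons (orange) and 2 antisense genes (purple); filled points have an adjusted p under 0.05. All points lie above 0, and Pcdhgc3, Pcdhga1, BC037039 and the first and middle stretches of the constant exons are filled. Of the 15 own exons, 6 passed the filter only through their Pim3-/- libraries and so had to lie above 0. The points are not independent, as the 3 stretches are parts of the same exons and the antisense genes overlap own exons.

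The alpha cluster was close to silent in WT ESCs. Its constant exons held 2 counts in WT replicate 1, 5 in WT replicate 2, 18 in Pim3-/- replicate 1 and 16 in Pim3-/- replicate 2. Both Pim3-/- libraries were thus above both WT libraries, as in 38.2% of all tested features. Like the alpha rows, these reads passed the filter only through the Pim3-/- libraries, so a difference was to be found once they passed. The level was 0.163 ± 0.0823 CPM in WT and 0.648 ± 0.0380 CPM in Pim3-/- ESCs (SD, n = 2). The log2 fold change was 1.93 (SE 0.62) with an adjusted p of 0.0459 by edgeR's quasi-likelihood test, and the pooled counts, 7 against 34, gave a 3.87-fold ratio (exact 95% interval 1.69 to 10.3, counting error only). The call was lost without WT replicate 1 (log2 fold change 1.48, adjusted p = 0.443), WT replicate 2 (2.50, 0.234) or Pim3-/- replicate 1 (1.85, 0.064), and by DESeq2's Wald test (1.94, adjusted p = 0.213). Low genes that were tested also stood higher: of the 2626 with a mean under 1 CPM, 22.7% were higher, and their median log2 fold change was 0.87. These are only the low genes that passed the filter, which can itself shift such a median. With no filter, the median over all 31418 genes with a count was 0.27 and 9.1% were higher.

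Own exons of the alpha genes held 5 counts at most. Pcdhac2, the alpha C-type gene next to the constant exons, had 0, 1, 3 and 5 of them, and Pcdhac1 had 0 in all libraries. Pcdha12 had 0, 2, 0 and 1. The deposited rows ran from 1.63 for Pcdha12, which did not pass (adjusted p = 0.0813), to 2.05 for Pcdhac2 (adjusted p = 0.0362), with a median of 1.93. The differences among the alpha rows thus rest on 5 counts or fewer. Pcdha10 has no row, and no value is given for it.

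Beta genes, which share no exons across the cluster and so can be read row by row, were about as low as the alpha genes. All 22 together had 5 counts in each WT library, 33 in Pim3-/- replicate 1 and 27 in Pim3-/- replicate 2. The summed level was 0.241 ± 0.0285 CPM in WT and 1.14 ± 0.134 CPM in Pim3-/- ESCs (SD, n = 2), a ratio of pooled counts of 4.78 (exact 95% interval 2.43 to 10.5, counting error only). With 2 libraries a group an exact permutation test of this sum cannot go below p = 0.333, and none is given. The number of beta genes with a count was 4 and 2 in WT and 11 and 12 in Pim3-/- libraries. Over the whole table, the number of genes with a count likewise was 24239 and 24696 in WT and 27383 and 27508 in Pim3-/- libraries, at similar totals, and the part of this in the beta result was not tested.

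Pcdhb14 led the beta genes: 1 read fell on it in WT replicate 1, 0 in WT replicate 2, 11 in Pim3-/- replicate 1 and 9 in Pim3-/- replicate 2. The ratio was 15.9, and its exact 95% interval ran from 2.55 to 660. Without Pcdhb14 the beta sums were 4, 5, 22 and 18 and the ratio 3.54 (1.69 to 8.30). The intervals of this paragraph cover counting error only and do not allow for picking Pcdhb14 as the highest of the 22 beta genes. Pcdhb22, the last gene of the cluster, which shares 455 bases with Pcdhb21, went with neither group at 2, 4, 2 and 5 counts, with a ratio of 0.929 (0.267 to 3.35). Pcdhb7 had 6 counts in Pim3-/- replicate 1, 1 in WT replicate 2 and none elsewhere. Pcdhb3 was read 4 times in Pim3-/- replicate 1, 1 time in Pim3-/- replicate 2 and never in WT, and Pcdhb17 had 1, 0, 2 and 1. In all, 12 beta genes had counts in Pim3-/- libraries only, 5 in both groups and 0 in WT only. Pcdhb5, Pcdhb8, Pcdhb9, Pcdhb10 and Pcdhb13 had none in any library. No share over all genes stands beside these numbers. Since more genes of the whole table had a count in the Pim3-/- libraries, they are not read as particular to beta genes. A count of 0 allows up to 3 counts, or 0.112 to 0.157 CPM depending on the library.

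Set side by side with the constant-exon reads counted once, the alpha cluster held 2, 8, 22 and 28 counts, the beta cluster 5, 5, 33 and 27 and the gamma cluster 991, 1257, 2521 and 2077. The ratios of pooled counts were 3.98 (exact 95% interval 2.00 to 8.81) for alpha, 4.78 (2.43 to 10.5) for beta and 1.63 (1.55 to 1.71) for gamma. All 3 clusters were higher in both Pim3-/- libraries than in either WT library, an order that 38.2% of all tested features showed. The interval of the gamma ratio lay below those of the alpha and beta ratios, which overlapped almost wholly, but these intervals leave out the spread between libraries, and the difference between clusters was not tested.

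More of the genes around the clusters were lower than higher. Taf7, a subunit of the general transcription factor TFIID that lies between the beta and gamma clusters and ends 17589 bases before Pcdhga1, fell by 1.24 on the log2 scale (SE 0.16, adjusted p = 0.00439 by edgeR's quasi-likelihood test), with 140.8 and 131 CPM in WT and 56.1 and 59.3 CPM in Pim3-/- libraries. Its neighbour Slc25a2, a mitochondrial ornithine carrier gene, had 0, 3, 5 and 3 counts. Upstream of the alpha cluster, 6 of the 8 listed genes fell, among them Zmat2 by 1.36 (adjusted p = 0.004) and Wdr55 by 1.63 (adjusted p = 0.00349). Ndufa2 fell by 1.10 (adjusted p = 0.00744), Dnd1, Hars and Ik by 0.88, 0.87 and 0.73 (adjusted p = 0.0249, 0.0279 and 0.0167), and Tmco6 and Hars2 did not pass at 0.41 and -0.17. Under the alternatives, the highest adjusted p was 0.0783 for Ndufa2, 0.175 for Dnd1, 0.181 for Hars, 0.239 for Ik and 0.106 for Hdac3, so that each of these calls was lost under at least 1, while Taf7, Zmat2 and Wdr55 stayed under the threshold in all (at most 0.0443, 0.038 and 0.0174).

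Downstream of the gamma cluster, the adjoining actin-regulating formin gene Diaph1 stood at -0.36 (SE 0.19, adjusted p = 0.175 by edgeR's quasi-likelihood test). Hdac3, a histone deacetylase gene, fell by 0.87 (adjusted p = 0.00899). Arap3 rose by 1.64 (SE 0.28, adjusted p = 0.00728). Without WT replicate 1 or WT replicate 2 its log2 fold change was 1.63 and 1.52, which did not pass (adjusted p = 0.0722 and 0.0719). Rell2, Fchsd1, Rnf14, Gnpda1 and Ndfip1 lay between -0.27 and 0.28 and did not pass. Pcdh12, a protocadherin outside the clusters, had 0, 0, 2 and 5 counts. Of the 20 neighbours 18 were tested, with 1 higher, 8 lower and a median of -0.31, where 17.6% of all genes tested were higher and 16.2% lower. DESeq2's Wald test also called 1 neighbour higher and 8 lower, where 13.9% of all genes were higher and 3197 of 18444 lower.

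**Figure D5:**
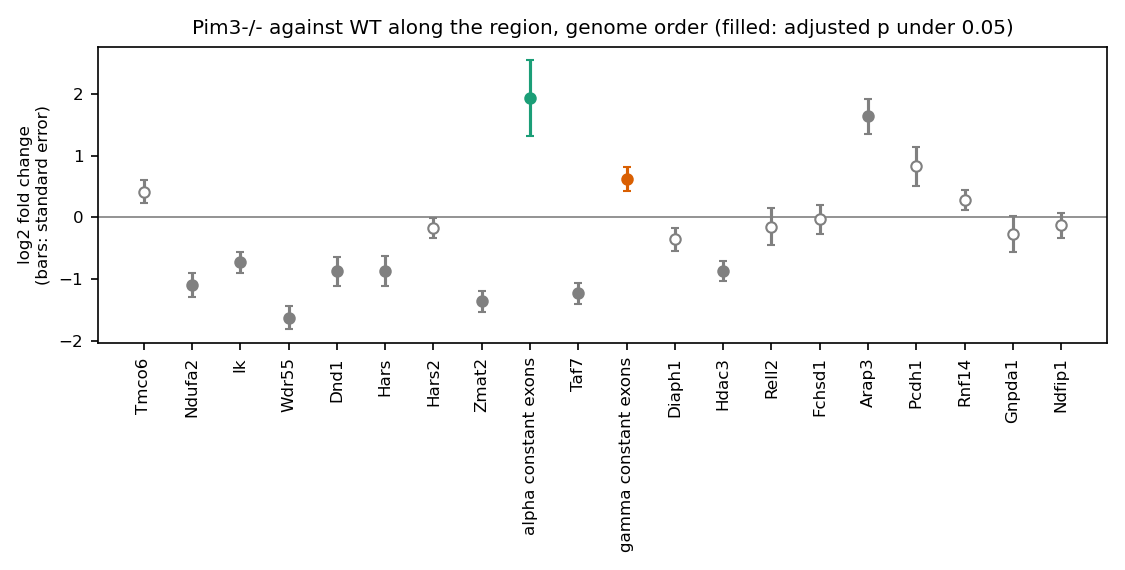
Log2 fold change of Pim3-/- against WT (y axis; bars, standard error) for the tested neighbours (grey) and for the alpha (green) and gamma (orange) constant exons in genome order; filled points have an adjusted p under 0.05. The constant exons of both clusters and Arap3 are the filled points above 0, and Taf7, between them, is among the 8 filled points below 0.

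Other protocadherins were low as well. Of 12 delta protocadherins and other solitary relatives, which lie outside the clusters, 2 were tested and 0 passed in either direction (1 higher at an unadjusted p under 0.05, 0 by DESeq2's Wald test). Pcdh1, some distance downstream of the gamma cluster, had 58, 86, 192 and 127 counts (log2 fold change 0.83, SE 0.32, adjusted p = 0.0805 by edgeR's quasi-likelihood test), and Pcdh8 had 8, 9, 12 and 21 (0.63, adjusted p = 0.404). Pcdh10 and Pcdh20 were listed at 0 in all 4 libraries.

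Among genes for CTCF, cohesin and related chromosome architecture, 0 of 16 tested were higher and 3 were lower, with a median log2 fold change of -0.42. Over all 18444 genes tested, 17.6% were higher and 16.2% lower. At an unadjusted p under 0.05, 0 of the 16 were higher and 8 lower, and no share of lower genes over the table is given for it. By DESeq2's Wald test 0 of the 16 were higher and 7 lower, where 13.9% of all genes were higher and 3197 of 18444 lower. Ctcf itself was at 129 ± 13.7 CPM in WT and 133 ± 13.2 CPM in Pim3-/- ESCs (SD, n = 2; log2 fold change 0.04, adjusted p = 0.873). The cohesin subunit gene Rad21 (-0.18), the cohesin release factor gene Wapl (-0.38) and the cohesin loader gene Nipbl (-0.06) did not pass. Zfp143, a promoter-binding factor found at loop anchors, fell by 1.22 (adjusted p = 0.00479), Hdac8, the deacetylase of a cohesin subunit, by 1.07 (adjusted p = 0.0279) and Cdca5, which holds cohesin on chromatin, by 0.59 (adjusted p = 0.0343).

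Of 23 tested genes for silencing factors, 1 was higher and 5 lower, with a median of -0.21. Over all 18444 genes tested, 17.6% were higher and 16.2% lower. By DESeq2's Wald test 0 of the 23 were higher and 8 lower, where 13.9% of all genes were higher and 3197 of 18444 lower. Dnmt3b fell from 142 ± 20.7 to 58.0 ± 12.3 CPM (SD, n = 2), by 1.30 on the log2 scale (SE 0.21, adjusted p = 0.00636 by edgeR's quasi-likelihood test), and was lower in each Pim3-/- library, at 66.7 and 49.3 CPM, than in either WT library, at 128 and 157 CPM. The chromatin remodeller gene Hells fell by 0.96 (adjusted p = 0.00822) and the heterochromatin protein genes Cbx3 and Cbx1 by 0.83 and 0.71 (adjusted p = 0.0145 and 0.0215). Smchd1 and Setdb1, both known as repressors at the protocadherin clusters, did not pass, at 0.42 and 0.21 (adjusted p = 0.206 and 0.391). Whether any of these levels bears on the protocadherins was not tested.

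Among 18 genes for proteins that act with protocadherins in the cell, all tested, 5 were higher and 2 lower, with a median of 0.28. Over all genes tested, 17.6% were higher and 16.2% lower. By DESeq2's Wald test 4 of the 18 were higher and 2 lower, where 13.9% of all genes were higher and 3197 of 18444 lower. Ret, a receptor kinase that binds alpha and gamma protocadherins, rose by 1.27 (14, 26, 62 and 58 counts, adjusted p = 0.0485 by edgeR's quasi-likelihood test). Cyfip2 and Wasf2, of the WAVE actin-regulating complex that the alpha tail can bind, rose by 1.19 and 1.02 (adjusted p = 0.00562 and 0.0072), while the Cyfip2 relative Cyfip1 fell by 0.60 (adjusted p = 0.0372). Adam10, the protease that sheds protocadherin ectodomains, rose by 0.91 (adjusted p = 0.0254).

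The ESC label could be checked against markers. All 12 ESC marker genes were tested, with Pou5f1 at 2247 ± 153.8 CPM in WT and 1030 ± 104 CPM in Pim3-/- ESCs, and 1 was higher and 4 lower. For this and the marker lists that follow, the shares over all 18444 genes tested were 17.6% higher and 16.2% lower. Of 20 neuronal genes, the cell type in which clustered protocadherins are best known, 16 were tested, 1 was higher and 3 were lower. Their summed level was 920 to 1041 CPM in WT and 558 to 576 CPM in Pim3-/- libraries, carried mainly by Stmn2 (769 and 401 CPM on average) and Tubb3 (124 and 72.3 CPM), while the 16 genes tested had a median of 0.34 on the log2 scale, with 4 higher and 4 lower at an unadjusted p under 0.05. Dcx, which marks young neurons, was at 0 in all 4. Primitive endoderm markers were higher in 8 of 10 tested genes, and none of the 12 listed was at 0 in all libraries. Their summed level was 376 to 382 CPM in WT and 451 to 474 CPM in Pim3-/- libraries. Most of it was Sparc, at 358.5 CPM on average in WT and 294.9 CPM in Pim3-/- ESCs, which did not pass (log2 fold change -0.28). Col4a1, by contrast, rose from 14.45 to 131.2 CPM and Gata6 from 0.707 to 6.67 CPM. Markers of the 2-cell embryo were higher in 9 of 10 (summed 17.3 to 20.9 CPM in WT, and 177 and 52.1 CPM in Pim3-/- replicates 1 and 2). Of mesoderm, trophoblast and glial markers, 2 of 7, 2 of 6 and 2 of 4 tested were higher and none lower, and of fibroblast markers 0 of 5 were higher and 1 lower (at an unadjusted p under 0.05, 1 and 1; by DESeq2's Wald test, 1 and 1). The part of such cells in the protocadherin values was not tested, and in bulk RNA more cells of a type and more RNA per cell cannot be told apart. Pim3 itself had 4392, 4953, 4970 and 4804 counts in the order used above (log2 fold change -0.27, adjusted p = 0.251 by edgeR's quasi-likelihood test), which does not check the labels, since a small CRISPR/Cas9 mutation can leave the transcript in place.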

How the data were processed

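mRNA libraries (VAHTS mRNA-seq V2 kit) of 2 WT samples and 2 Pim3-/- clones were sequenced. The authors deposited read counts per gene as whole numbers, not normalized, on GRCm38. The submitters' processing notes name Trim Galore, STAR and featureCounts, whereas the methods of the study name Cutadapt and Hisat2. Versions, strand setting and the handling of reads that touch several genes are not given in the sources used here. A second deposited table, of transposable elements, was not used. Library totals were 23156247 and 25668307 counts for WT and 22892949 and 22029427 for Pim3-/- replicates 1 and 2.

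Counts were tested with edgeR 4.0.16 in R 4.3.3 (TMM factors, filterByExpr with a minimum count of 10 and a minimum total of 15, glmQLFit, glmQLFTest; genotype as the only term), on all 4 libraries and 18444 genes, with Benjamini-Hochberg adjustment over all of them, 0.05 as the threshold and 3-fold as the size threshold. The script was first tested on simulated data. The same test was run on a table in which reads of the constant exons were counted once, chosen after seeing the data, and on one with the gamma constant exons split by position. Ratios of pooled counts have exact binomial 95% intervals, and shares exact Clopper-Pearson ones. Exons came from GENCODE M21. Alternatives were DESeq2 size factors, library totals, other filters, DESeq2 1.42.0's Wald test, a replicate block and leaving out each library. Named genes were the C-type members, in each cluster the 5 members with the highest mean CPM and the 5 largest called changes, the neighbours of the clusters, Pim3, and in each other list up to 4 called genes with the largest changes and the 2 most abundant, of which those bearing on the results are printed. Gm genes, antisense genes, 3222401L13Rik and other members described for contrast were chosen after their values were seen. The members and gene lists were chosen with earlier results of these data known.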

Additional observations from a re-analysis of the deposited data

How the results depend on the processing

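All 540 values of tested members under the alternatives were above 0 except 4 own-exon values. Rows of a cluster are near copies, so these values are not independent. The 13 alpha rows and 6 of the gamma own exons passed the main filter only through their Pim3-/- libraries. Their direction was thus set by how they passed, and the 540 values do not test it. The number of members higher, 34 as deposited, was 21 with DESeq2's size factors, 35 with library totals and 28 with the replicate block. It was 2 with no filter on low counts and 22 with at least 10 counts in every library (alpha rows are then not tested). DESeq2's Wald test gave 3, and counting shared reads once gave 4. The 12 at least 3-fold higher became 0 with no filter, with at least 10 counts in every library and by the Wald test, 6 with the replicate block, and 0 to 12 with 1 library left out. Lone libraries were taken to vary like the other group. With library totals the median of the gamma rows was 1.07 and the log2 ratios of summed beta and gamma reads were 2.70 and 1.16, against 2.24 and 0.71. The constant-exon reads lost their calls as follows: gamma at 0.58 with DESeq2's size factors, 0.59 with no filter and 0.58 by the Wald test; alpha at 1.90 with no filter, 1.95 with the replicate block and 1.94 by the Wald test. With 1 library left out gamma ran from 0.37 to 0.80 and alpha from 1.48 to 2.50. The causes were not tested.

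Directions turned for own-exon reads of Pcdhga3 (-0.26) and Pcdhgb7 (-0.035) without WT replicate 1, and of Pcdhgb8 (-0.45 without WT replicate 1, -0.54 without Pim3-/- replicate 2), and without WT replicate 2 the 3 stood at 0.46, 0.69 and 0.77. With library totals Pim3 (0.19), Diaph1 (0.093), Rad21 (0.27), Wapl (0.075) and Nipbl (0.39) turned, as did Nipbl with at least 10 counts in every library (0.024) and without Pim3-/- replicate 1 (0.11), and Ctcf without WT replicate 1 (-0.12) and without Pim3-/- replicate 1 (-0.08). Without Pim3-/- replicate 2 Ctcf stood at 0.12 and Nipbl at -0.29. The replicate numbers did not pair the libraries: deviations of WT and Pim3-/- replicate 1 from their group means had r = 0.0196 over 18444 genes, and the replicate block left 28 members higher. Alpha and beta values rest on few counts, which limits them most.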
